A study of Homo sapiens with 2 samples.

Results

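The genes described here are 41 genes of DNA replication and of the passage from G1 into S phase, taken by symbol from the 36601 genes in the count files. Single-cell RNA sequencing measured them in A549, a widely used cell line that grew from a human lung adenocarcinoma and is labelled epithelial. Cells kept in 2D culture gave the control library. Cells that had been confined with polydimethylsiloxane micropillars gave the squashed library. All cells of both libraries were live cells sorted, after 48 h of recovery, for loss of a chromosome reporter, a state of about 1 cell per 500 according to the design text. Which chromosome the reporter marks is not stated in the labels. Each group is 1 library, so no difference between the libraries has a replicate check and no test was made. Intervals are exact 95% intervals and cover counting error only.

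Before a cell copies its DNA, a ring of MCM proteins is loaded at replication origins and then switched on as the helicase that opens the double strand. A sliding clamp, PCNA, is placed on the DNA by a clamp loader and holds the polymerases, while other enzymes supply nucleotides, join the lagging-strand pieces and rebuild chromatin on the copied strands. Many of these genes are known as targets of E2F transcription factors, which act at the entry into S phase.

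A barcode was kept as a cell with at least 1000 unique molecular identifiers (UMIs, each marking 1 captured RNA molecule), 500 or more genes and no more than 20% mitochondrial UMIs. This left 1906 control cells with 27482392 UMIs and 1930 squashed cells with 23328323 UMIs. The median depth was 12458.5 UMIs per control cell and 9330.5 per squashed cell, the median number of genes was 2598 and 1790, and the median mitochondrial share was 5.77% and 7.10%. The libraries had 4 barcodes in common, 2 of them among kept cells. Levels are given as CPM, the share of a gene in all UMIs of the kept cells, so that libraries of different totals can be compared. The epithelial keratins KRT8 and KRT18 carried most of a list of 5 epithelial markers, which came to 2498 CPM in control and 1732 CPM in squashed cells. They moved opposite ways, KRT8 from 796 to 1169 CPM and KRT18 from 1691 to 557 CPM. The epithelial surface marker EPCAM had 5 and 0 UMIs. The part of these differences in the results was not tested. Lists of fibroblast, immune and endothelial markers (5 genes each) summed to 7.71, 2.07 and 0.07 CPM in control and to 6.39, 1.42 and 0.04 CPM in squashed cells, with COL1A2, PTPRC, CD3E, CDH5, KDR and CLDN5 among those at 0 in both.

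Promoter sequences from RefSeq (GRCh38.p14) were at hand for 34 of the 41 genes. An E2F-type motif (TTTGGCGC, TTTGCCGC, TTTCGCGC or TTTCCCGC, on either strand) lay between 250 bases before and 50 bases after the start in 20 of these 34 genes, or 58.8%, against 3.99% of the 27305 genes with such a window. CCAAT, the letters of the NF-Y box, was found in 70.6% of the 34 and 39.7% of all genes. TTTGAA, the letters of the element known as CHR from promoters of G2/M genes, was found in 8.82% of the 34 and in 18.2% of all. A match is a description of the letters and not a measured binding site. The promoters of RFC3, USP1, GINS1 and MCM6 are printed 5′ to 3′ on the gene's strand, from 250 bases before to 20 bases after the start, with E2F-type matches in capitals. Among the 28 genes measured at 20 CPM or more in either library, RFC3 and USP1 are shown as those with the highest and the lowest ratio between the libraries. GINS1 and MCM6 are those, among genes with a window, with the highest and the lowest ratio of G2/M-high to rest cells, ranges defined below. MCM5, which was lower still, has no window.
RFC3, chr13:33817899-33818168, plus strand: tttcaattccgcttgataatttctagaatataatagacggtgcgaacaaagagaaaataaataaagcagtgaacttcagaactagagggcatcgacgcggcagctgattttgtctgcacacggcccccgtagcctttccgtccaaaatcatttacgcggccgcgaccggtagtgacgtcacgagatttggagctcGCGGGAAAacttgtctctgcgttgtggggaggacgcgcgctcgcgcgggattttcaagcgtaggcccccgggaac
USP1, chr1:62436145-62436414, plus strand: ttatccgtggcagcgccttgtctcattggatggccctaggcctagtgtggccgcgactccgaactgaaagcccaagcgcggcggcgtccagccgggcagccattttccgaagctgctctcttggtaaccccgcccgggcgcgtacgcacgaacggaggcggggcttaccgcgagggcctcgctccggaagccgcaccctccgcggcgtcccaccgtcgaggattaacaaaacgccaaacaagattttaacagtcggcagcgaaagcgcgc
GINS1, chr20:25407423-25407692, plus strand: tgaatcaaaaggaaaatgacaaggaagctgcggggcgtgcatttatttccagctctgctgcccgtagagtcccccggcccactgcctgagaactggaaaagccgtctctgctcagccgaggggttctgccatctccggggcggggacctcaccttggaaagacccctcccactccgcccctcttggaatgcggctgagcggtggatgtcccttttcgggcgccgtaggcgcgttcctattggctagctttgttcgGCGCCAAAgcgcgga
MCM6, chr2:135876424-135876693, minus strand: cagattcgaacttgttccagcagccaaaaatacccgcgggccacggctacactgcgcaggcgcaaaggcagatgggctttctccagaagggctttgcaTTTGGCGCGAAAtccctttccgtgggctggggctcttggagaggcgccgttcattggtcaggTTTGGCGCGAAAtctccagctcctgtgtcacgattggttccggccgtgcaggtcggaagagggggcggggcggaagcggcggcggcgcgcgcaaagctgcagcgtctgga
Counted from the start, the 1 match of RFC3 begins at -55 and that of GINS1 at 6. MCM6 holds TTTGGCGC at -152 and again at -90, each overlapped by GCGCGAAA, at -148 and -86. USP1, for which this is 1 of 2 windows, had none in either.

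Summed over the 41 genes, the level was nearly the same in both libraries, at 1454 CPM (1440 to 1468) in control and 1443 CPM (1428 to 1458) in squashed cells. Of the 41, 28 reached 20 CPM in either library and are called measured here. RFC3, a subunit of the clamp loader, was the 1 measured gene past 1.5-fold on the higher side in squashed cells, against 3.48% of all 4307 measured genes. USP1, a protease that takes ubiquitin off PCNA, was the 1 gene at least 1.5-fold lower, against 12.4% of all. The remaining 26 lay within 1.5-fold. USP1 counted as measured through the control library alone, at 22.3 CPM against 14.1 CPM in squashed cells. UNG and DSCC1 were also past 1.5-fold lower but were not measured in either library, so the count of lower genes depends on the bound. The median log2 ratio of squashed over control was 0.03 over the 28 genes and -0.14 over all measured genes, and 21 of the 28 lay above the median of all genes. Under a stricter cell filter (2000 UMIs, 1000 genes, 10% mitochondrial UMIs) the order of these medians turned, at -0.18 for the replication genes and -0.12 for all genes. With TMM scaling, which sets the median of all genes to 0.03, the calls were 3 higher (RFC3, TYMS and HELLS) and 0 lower. Of all genes measured under that scaling, 5.83% were higher and 8.52% lower.

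**Figure D1:**
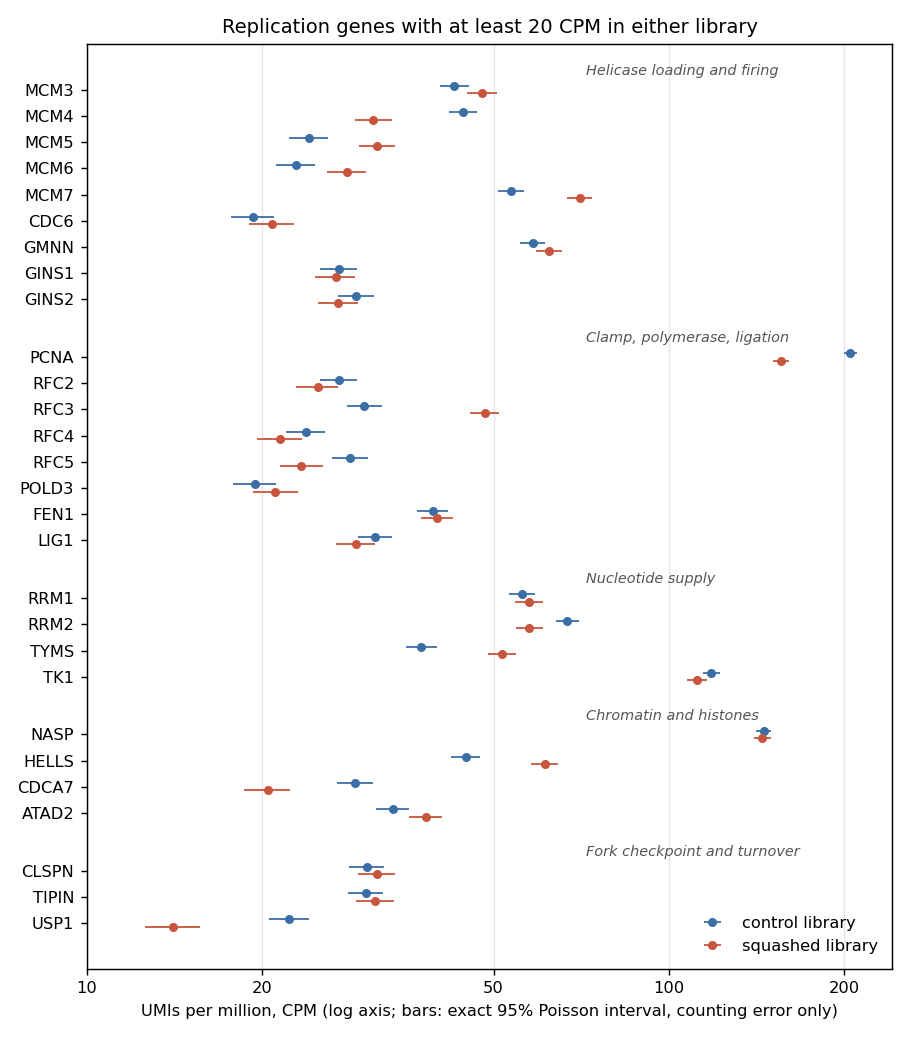
Level of the 28 measured replication genes in each library, in CPM on a log axis, grouped by role; points are the 2 libraries and bars the exact 95% Poisson intervals. PCNA, NASP and TK1 stand highest in both libraries, and RFC3 and USP1 show the widest gaps between the libraries.

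The genes that load and fire the helicase summed to 338.5 CPM in control and 363.8 CPM in squashed cells, a log2 ratio of 0.10, with 9 of 11 measured and none past 1.5-fold. Subunits of the one MCM ring went opposite ways. MCM7 had 53.6 CPM in control and 70.3 CPM in squashed cells, a log2 ratio of 0.39 (0.29 to 0.49). MCM5 had 24.1 and 31.6 CPM, also 0.39 (0.24 to 0.54). MCM6 went from 22.9 to 27.95 CPM, a ratio of 0.29 (0.13 to 0.45), and MCM3 from 42.8 to 47.7 CPM, a ratio of 0.16 (0.04 to 0.28). MCM4 was the exception, with 44.3 CPM in control and 31.1 CPM in squashed cells, a ratio of -0.51 (-0.65 to -0.38). MCM3, MCM5, MCM6 and MCM7 stayed above 0 and MCM4 below 0 under each of the 8 other settings of scaling, cell filter and depth. MCM4 passed 1.5-fold lower in 3 of them. MCM7 came near 0, at 0.034, with cells thinned to 2000 UMIs, and was 0.19 with the stricter cell filter. MCM3, MCM5 and MCM6 were lowest with each cell weighted equally, at 0.053, 0.22 and 0.21. MCM2, the sixth subunit, was under the minimum, with 177 and 202 UMIs. The loader CDC6 (19.3 and 20.8 CPM), the licensing inhibitor GMNN (58.4 and 62.3 CPM) and the helicase activators GINS1 (27.1 and 26.8 CPM) and GINS2 (29.0 and 27.0 CPM) had intervals that include 0.

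Genes of the clamp, the polymerases and the joining of strands summed to 432.2 CPM in control and 392.7 CPM in squashed cells, a log2 ratio of -0.14. With TMM scaling, which adds 0.15 to each log2 ratio, that sum is at 0.013. The gap in PCNA was larger than that of the sum. The sum held 11877 UMIs in control and 9160 UMIs in squashed cells, of which PCNA gave 5635 and 3640. Without PCNA, the CPM sum of this role was slightly higher in squashed than in control cells. PCNA was the most abundant of the 41 genes, with 5635 UMIs (205 CPM) in control and 3640 UMIs (156 CPM) in the squashed library, a log2 ratio of -0.39 (-0.45 to -0.33). The subunits of the clamp loader also differed in their ratios. RFC3 (ENSG00000133119, chr13:33818069-33966558, plus strand) had 29.98 CPM (27.97 to 32.1) in control and 48.3 CPM (45.5 to 51.2) in squashed cells, which is 1.61-fold, or 0.69 on the log2 scale (0.56 to 0.82). Of the other small subunits, RFC5 was lower in the squashed library, at 28.4 and 23.4 CPM (-0.28, -0.44 to -0.12), while for RFC4 (23.8 and 21.5 CPM) and RFC2 (27.1 and 24.9 CPM) the interval of the ratio includes 0. The large subunit RFC1, outside the 41 genes, was higher, at 41.7 and 50.6 CPM (0.28, 0.16 to 0.40). RFC3 ranged from 0.44 to 0.94 over the 8 other settings. It was under 1.5-fold with the stricter cell filter (0.44) and with each cell weighted equally (0.52). RFC5 ranged from -0.49 with the stricter cell filter to -0.13 with TMM scaling. RFC4 and RFC2, at -0.15 and -0.12, lay near the median of all measured genes, -0.14. GENCODE 44 places a long noncoding RNA on the same strand within RFC3 and lists a processed pseudogene named for it. POLD3, a subunit of polymerase delta, had 19.4 and 21.1 CPM, the flap nuclease FEN1 39.3 and 40.0 CPM, and the ligase LIG1 31.3 and 29.0 CPM. DSCC1, a subunit of an alternative clamp loader, was under the minimum with 96 and 37 UMIs, a log2 ratio of -1.13 (-1.73 to -0.58).

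Among the genes of nucleotide supply, the sums were 292.0 and 287.3 CPM. TYMS, which makes thymidylate, had 37.6 CPM in control and 51.7 CPM in squashed cells, a log2 ratio of 0.46 (0.34 to 0.58). That ratio was lowest, at 0.00055, with each cell thinned to 2000 UMIs. It was 0.16 with the stricter cell filter, 0.38 with each cell weighted equally and 0.61 with TMM scaling. The regulatory subunit of ribonucleotide reductase, RRM2, had 66.9 and 57.6 CPM (-0.22, -0.32 to -0.11), and the catalytic subunit RRM1 had 56.0 and 57.5 CPM. Thymidine kinase, TK1, had 118 and 112 CPM. UNG, which removes uracil from DNA, was under the minimum, with 363 and 199 UMIs and a log2 ratio of -0.63 (-0.89 to -0.38). TYMS overlaps ENOSF1 on the opposite strand, and UNG overlaps ACACB on the same strand.

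The chromatin genes also held a split. HELLS, a remodeler needed for DNA methylation, had 44.8 CPM in control and 61.2 CPM in squashed cells, a log2 ratio of 0.45 (0.34 to 0.56). CDCA7, which brings HELLS to chromatin, had 28.9 and 20.5 CPM, a ratio of -0.50 (-0.67 to -0.33). The 2 partners thus lay on opposite sides, and under the 8 other settings HELLS stayed between 0.44 and 0.60 and CDCA7 between -0.68 and -0.35. The histone chaperone NASP was level at 145.5 and 144.8 CPM, and ATAD2, a bromodomain ATPase of replicating chromatin, had 33.6 and 38.2 CPM (0.19, 0.05 to 0.32). The chromatin assembly subunits CHAF1A and CHAF1B, the histone mRNA binder SLBP and the methylation factor UHRF1 were under the minimum, with 204 to 417 UMIs per library.

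At the fork, the checkpoint adaptor CLSPN had 30.3 CPM in control and 31.5 CPM in squashed cells, and TIPIN, of the fork protection complex, had 30.2 and 31.3 CPM. USP1 (ENSG00000162607, chr1:62436297-62451804, plus strand) had 22.3 CPM (20.5 to 24.1) in control and 14.1 CPM (12.6 to 15.7) in squashed cells, a 1.58-fold lower level and a log2 ratio of -0.66 (-0.86 to -0.47). It stayed below 0 in all 8 other settings, from -0.98 to -0.51, and came under 1.5-fold with TMM scaling and in cells with at least 10000 UMIs. DTL, an adaptor for the destruction of proteins bound to PCNA, had 260 and 261 UMIs. The regulators CCNE2, a cyclin of the G1/S step, and E2F8, a repressor of E2F targets, were rare, at 26 and 33 UMIs and at 84 and 55 UMIs. In all, the 13 genes under the minimum lay between 0.95 and 17.0 CPM.

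**Figure D2:**
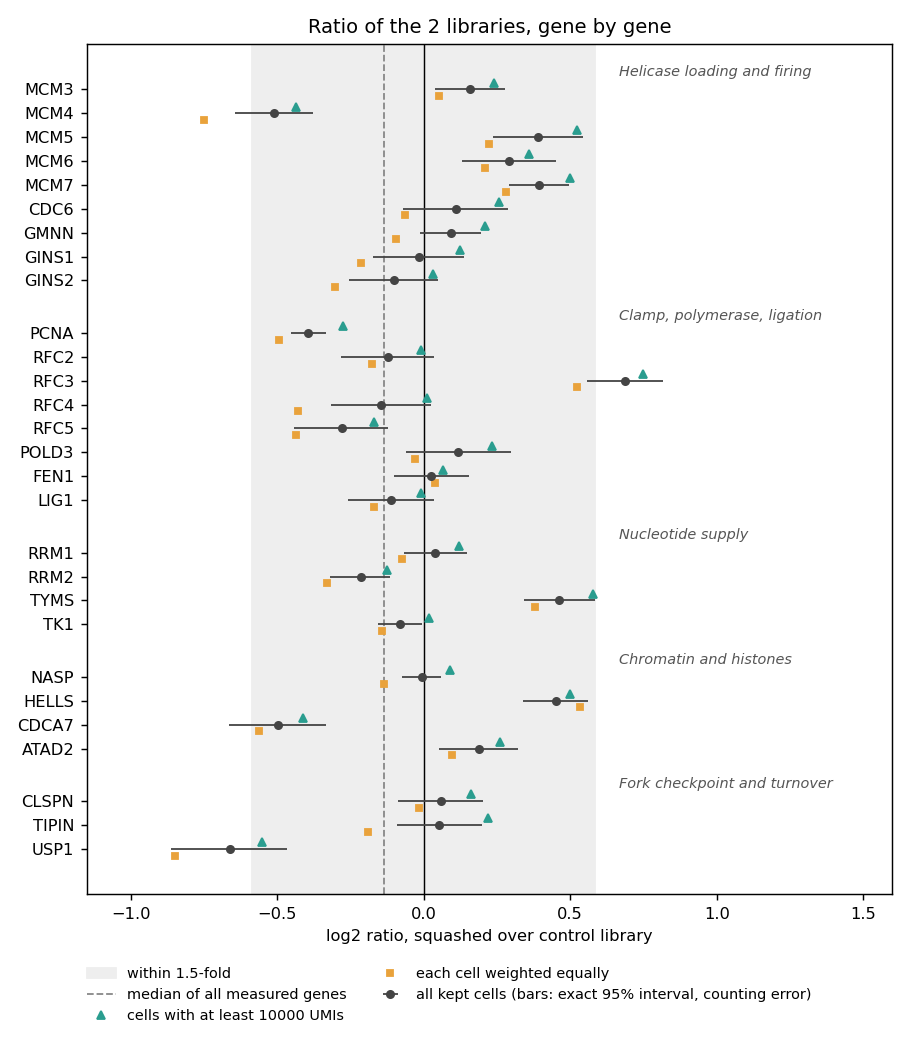
Log2 ratio of squashed over control for the 28 measured genes by role, with the exact 95% interval of the ratio for all kept cells (dark points), the value in cells with at least 10000 UMIs (triangles) and the value with each cell weighted equally (squares). The grey band is 1.5-fold and the dashed line the median of all measured genes, -0.14. MCM4, PCNA, RFC5, CDCA7 and USP1 lie to its left under each of the 3 weightings, and RFC3, TYMS, HELLS and MCM7 are among those to its right.

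The levels of the 28 genes were next compared between cells that differ in genes of division outside the list. Each cell was thinned to 2000 UMIs, which left out 81 control and 148 squashed cells that were shallower. Cells with at least 18 UMIs of 54 G2/M genes, the upper tertile of all thinned cells, were called G2/M-high. Of the others, cells with a UMI of histone gene H4C3 (HIST1H4C in the files), whose RNA is known to be made in S phase, were called H4C3-high, and the remainder rest. These are ranges and not cell types: 226 control and 150 squashed cells lay within 2 UMIs of the G2/M bound, and 1721 and 1640 cells within 1 UMI of the H4C3 bound. G2/M-high cells were 39.7% of control cells (725) and 26.2% of squashed cells (466), H4C3-high cells 11.3% (206) and 15.1% (269), and rest cells 49.0% (894) and 58.8% (1047). Median depth before thinning differed between ranges, from 11336 UMIs in rest to 20422 in H4C3-high control cells and from 8488 to 17745 in squashed cells. The G2/M-high ranges were not alike in H4C3, which had 289 CPM in control and 724 CPM in squashed cells. In H4C3-high cells it had 747 and 1084 CPM. The part of this difference in the library ratios within ranges was not tested. In cells with at least 10000 UMIs, thinned to 10000 and divided anew, the shares lay closer together, with G2/M-high cells at 35.7% (33.0 to 38.5) of control and 29.9% (26.9 to 33.0) of squashed cells, H4C3-high cells at 18.3% and 22.5%, and rest cells at 46.0% and 47.6%.

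The summed level of the 41 genes stood in the same order in both libraries. It was 984 CPM in rest, 1332 CPM in H4C3-high and 2042 CPM in G2/M-high control cells, and 937, 1459 and 2188 CPM in squashed cells. G2/M-high cells thus held 2.08-fold the level of rest cells in control and 2.34-fold in the squashed library, log2 ratios of 1.05 and 1.22. Among cells with at least 10000 UMIs alone the log2 ratios were 0.88 and 1.07. Genes in general were also higher in G2/M-high than in rest cells. Over all genes at 20 CPM in either range, the median log2 ratio was 0.33 in control and 0.55 in squashed cells. For the replication genes among them it was 1.12 and 1.31. In H4C3-high over rest cells, these medians were 0.32 and 0.35 for all genes and 0.65 and 0.84 for the replication genes. A gene could meet the 20 CPM bound through the higher range alone, which can raise the medians of both sets. In control cells UHRF1, for example, had 9.4 CPM in rest and 24.5 CPM in G2/M-high cells. Of the 28 measured genes, 27 were at least 1.5-fold higher in G2/M-high than in rest cells of both libraries, all but MCM5, where 23.9% of all measured genes were. In H4C3-high cells it was 13 of the 28, against 17.1% of all.

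**Figure D3:**
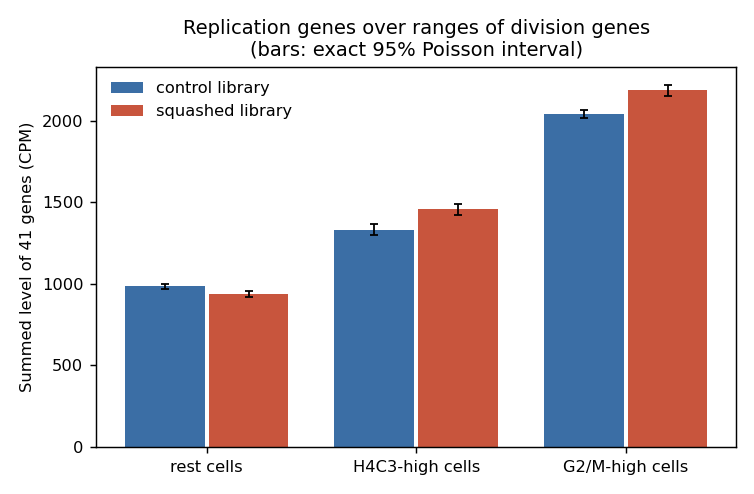
Summed level of the 41 replication genes in CPM in rest, H4C3-high and G2/M-high cells of each library; bars start at 0 and whiskers are exact 95% Poisson intervals. The bars go from 984 to 2042 CPM in the control and from 937 to 2188 CPM in squashed cells.

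Both ranges together separated the genes into groups. A set of 12 genes was at least 1.5-fold above rest in both ranges of both libraries, which held for 2.21% of all measured genes: MCM4, MCM6, CDC6, PCNA, RFC4, POLD3, FEN1, HELLS, CDCA7, ATAD2, CLSPN and USP1. ATAD2 was the clearest of them, with 18.4 CPM in rest, 45.8 CPM in H4C3-high and 45.9 CPM in G2/M-high control cells, and 19.3, 54.1 and 55.7 CPM in squashed cells. A further 11 genes passed 1.5-fold in G2/M-high cells of both libraries and in H4C3-high cells of neither, which held for 16.9% of all genes: MCM7, GINS1, GINS2, RFC2, RFC5, LIG1, RRM1, RRM2, TYMS, TK1 and TIPIN. RRM2 had 38.4 CPM in rest, 29.6 CPM in H4C3-high and 115 CPM in G2/M-high control cells, and 37.8, 33.0 and 104 CPM in squashed cells. GINS1 likewise had 16.1, 12.4 and 45.3 CPM in control and 16.04, 16.8 and 49.3 CPM in squashed cells. RFC5, RRM2, TYMS and TK1 lay below rest in H4C3-high cells of both libraries, a count of 4 of 28 that is near the 19.1% of all genes. Some roles were split between the groups and others were not: each group held MCM, RFC and fork genes, while all 4 measured genes of nucleotide supply were among the 11 and HELLS, CDCA7 and ATAD2, of the 4 measured chromatin genes, were among the 12. An E2F-type match was found in 6 of the 9 genes of the first group that have a window and in 6 of the 11 of the other.

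MCM5 and MCM6 were the 2 measured genes whose ratio over rest was larger in H4C3-high than in G2/M-high cells of both libraries, as it was for 33.1% of all genes. MCM5 had 20.03 CPM in rest, 33.6 CPM in H4C3-high and 24.9 CPM in G2/M-high control cells, and 20.8, 45.6 and 37.5 CPM in squashed cells. MCM6 had 16.5, 32.2 and 26.5 CPM in control and 18.5, 36.9 and 36.1 CPM in squashed cells, where the ratios of 0.99 (0.70 to 1.29) and 0.96 (0.69 to 1.24) overlap. Among the rare genes, CCNE2 was high in H4C3-high cells, at 3.04 CPM in control and 3.85 CPM in squashed cells against 0.81 and 0.83 CPM in rest, log2 ratios of 1.89 (0.60 to 3.25) and 2.18 (1.01 to 3.55). In G2/M-high cells it had 0.28 and 0.55 CPM, a few UMIs. E2F8 was above rest in both ranges, with log2 ratios of 2.30 (0.98 to 3.79) and 2.19 (0.86 to 3.78) in H4C3-high and 3.08 (2.09 to 4.43) and 2.74 (1.62 to 4.24) in G2/M-high cells.

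**Figure D4:**
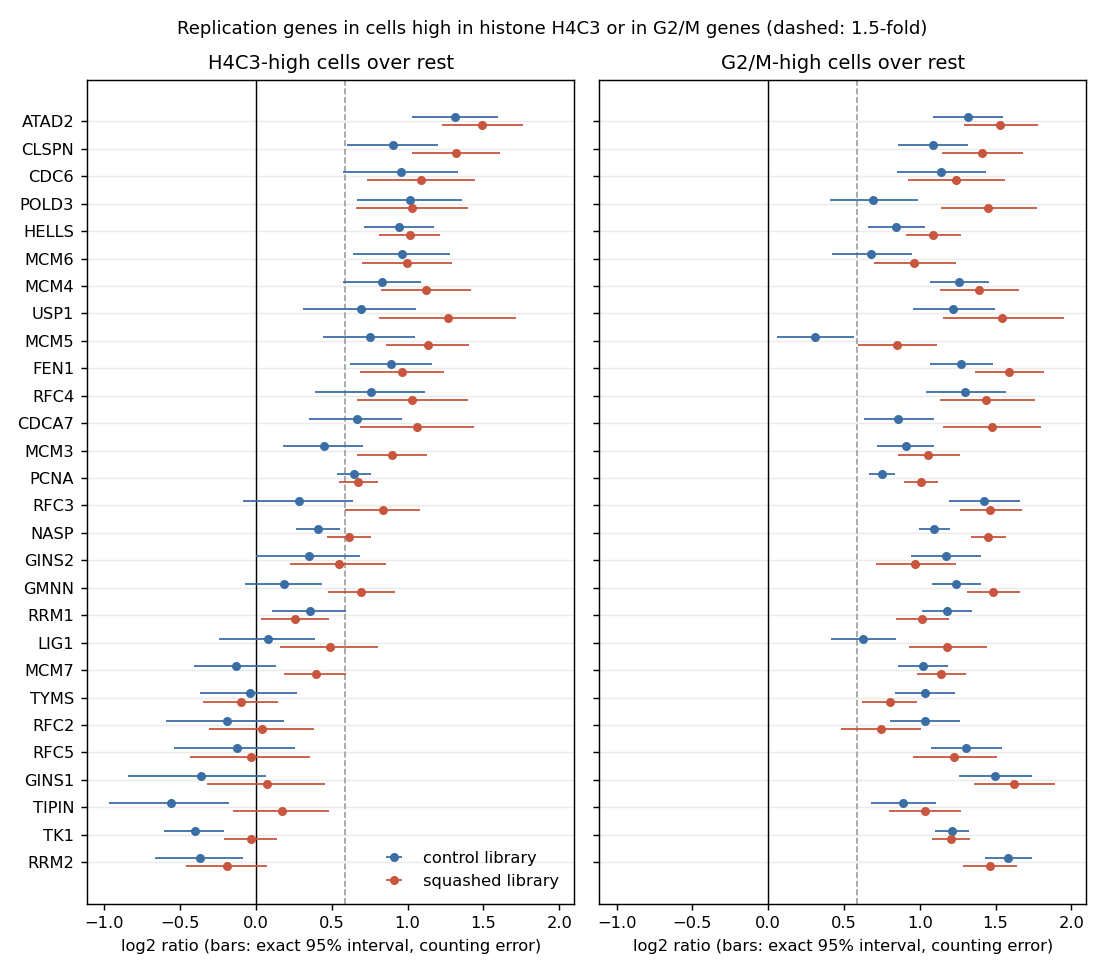
Log2 ratio of H4C3-high cells over rest (left) and of G2/M-high cells over rest (right) for the 28 measured genes, ordered by their H4C3-high ratio; points are the 2 libraries, bars exact 95% intervals for counting error, and the dashed line 1.5-fold. ATAD2, CLSPN and CDC6 lie right of the line on both sides, while RRM2, TK1, TIPIN and GINS1 do so in G2/M-high cells alone.

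The H4C3 bound rests on a single UMI at this depth, so the ranges were also drawn, after the data were seen, in cells with at least 10000 UMIs thinned to 10000, with bounds of 101 UMIs for the G2/M genes and 3 for H4C3. The first group then had 13 genes (1.76% of all) and the other 10 (15.3%). MCM3 and GINS2 entered the first group and POLD3 left it, NASP entered the other and GINS2 and LIG1 left it. Past 1.5-fold in both libraries were 25 of the 28 genes in G2/M-high cells (20.1% of all) and 15 in H4C3-high cells (14.8%). Below rest in H4C3-high cells were 5 genes (22.8%), with GINS1 and RFC2 added and TK1 gone. MCM5 and MCM6 were again the 2 genes with the larger H4C3-high ratio (32.5% of all).

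Within ranges, the summed log2 ratio of squashed over control was -0.07 (-0.11 to -0.03) in rest, 0.13 (0.08 to 0.18) in H4C3-high and 0.10 (0.07 to 0.13) in G2/M-high cells. Over replication genes at 20 CPM or more in the range of either library, the median ratios were -0.02, 0.21 and 0.15 in the same order. Those of all such genes were -0.20, -0.15 and -0.02. Of the 28 genes, 2 were at least 1.5-fold above control in rest (3.46% of all genes), 4 in H4C3-high (6.41%) and 2 in G2/M-high cells (6.04%). Lower by 1.5-fold were 2 in rest, CDCA7 and USP1 (21.5% of all genes), and none in H4C3-high (15.6%) or G2/M-high cells (8.94%). RFC3 was past 1.5-fold in each range, at 0.67 (0.41 to 0.92), 1.22 (0.87 to 1.58) and 0.71 (0.53 to 0.89), as were 2.07% of all genes. With the bounds drawn at 10000 UMIs no measured gene of the list was, against 2.21% of all. MCM7 had 0.33 (0.15 to 0.51), 0.86 (0.58 to 1.15) and 0.46 (0.31 to 0.60), while MCM5 had 0.06 (-0.21 to 0.32) in rest and 0.59 (0.35 to 0.84) in G2/M-high cells. Above control in each range were 10 genes (17.6% of all), among them MCM3, MCM5, MCM6 and MCM7. MCM4, PCNA, RFC5, CDCA7 and USP1 were lower in the squashed library in each range, as were 36.4% of all genes. With the bounds drawn at 10000 UMIs, 11 genes (20.1%) were above control in each range, MCM3 and CDC6 no longer among them, and 4 (35.8%) below, without RFC5. CDCA7 ran from -0.85 (-1.17 to -0.54) in rest to -0.23 (-0.48 to 0.00) in G2/M-high cells.

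The genes were spread unevenly over cells. In cells thinned to 2000 UMIs, the 41 genes gave 2.80 UMIs per cell in the control (SD 2.32 over 1825 cells, median 2, highest 15) and 2.52 in the squashed library (SD 2.39 over 1782 cells, median 2, highest 15). The variance was 1.93 times the mean in control and 2.27 times in squashed cells. Cells with no UMI of these genes were 17.6% (15.9 to 19.4) of control and 22.6% (20.7 to 24.6) of squashed cells. Cells with 3 to 5 UMIs were 35.8% and 30.4%, and cells with 10 or more were 1.21% (22 cells) and 1.35% (24 cells). Without thinning, 4.83% and 6.89% of kept cells had none. In cells with at least 10000 UMIs thinned to 10000, the means were 14.7 and 14.8 UMIs, so the lower mean of the squashed library was not found in the deeper cells. The libraries hold 1 cell line and no cell type that lacks these genes, so the share of free RNA in these counts was not measured.

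**Figure D5:**
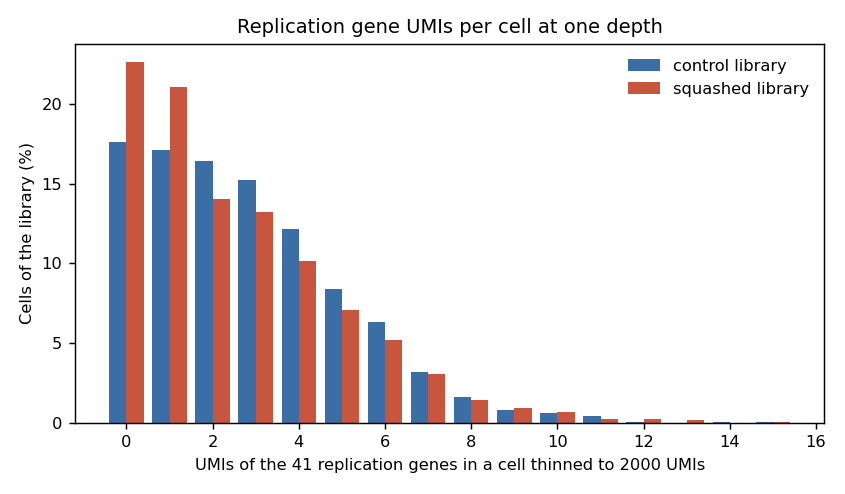
Share of cells in percent against the number of UMIs of the 41 replication genes in a cell thinned to 2000 UMIs, for 1825 control and 1782 squashed cells. Cells with 0 UMIs are 17.6% of the control and 22.6% of the squashed library, and the upper ends of both libraries overlap.

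Each gene was also set against the summed UMIs of the other 40 in the same cells, between the 20% of cells with the most (365 control and 356 squashed) and those ranked below the middle of the library (912 and 891). All 28 measured genes were higher in the upper cells of both libraries, as were 64.3% of all measured genes when cells were ranked by the 41 together. PCNA had the smallest ratio in control cells, with 161 CPM in lower and 274 CPM in upper control cells (0.76 on the log2 scale) and 100.2 and 235 CPM in squashed cells (1.23). ATAD2 had 16.4 and 65.5 CPM in control cells (2.00) and 12.8 and 82.1 CPM in squashed cells (2.68). CDC6 had ratios of 1.97 and 2.42, and CLSPN 1.95 and 2.21. Of 1994 ranked genes outside the list, those most like it by this measure, taking the smaller ratio of both libraries, were the linker histone gene HIST1H1D (2.78 in control and 3.72 in the squashed library), the mitotic kinase CDK1 (2.74 and 3.10), the repair gene BRCA1 (2.22 and 2.72), UBE2C of the mitotic ubiquitin system (2.05 and 2.45), HIST1H4C (1.93 and 2.62), the proliferation marker MKI67 (1.89 and 2.80), the kinetochore gene CENPF (1.87 and 2.47) and the spindle gene ASPM (1.85 and 2.56). Of these 8 genes, 4 belong to the G2/M list. Ranked genes needed 50 CPM or more in the upper cells of both libraries, with no bound in the lower cells. A gene could thus enter through the upper cells alone. HIST1H1D, for example, had 12.4 CPM in lower and 85.5 CPM in upper control cells. Upper cells were deeper than lower cells, by median 13539 against 12815.5 UMIs in control and 14892.5 against 9072 UMIs in the squashed library, and the part of depth in these ratios was not tested.

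A separate list of 43 other replication genes had 18 measured, with 0 past 1.5-fold on the higher side and 1 on the lower side in the squashed library. Its median log2 ratio was -0.03 and its sum went from 1105 to 1071 CPM (-0.04), near the values of the 41 genes. The gene past 1.5-fold was POLE4, a histone-fold subunit of polymerase epsilon, with 71.2 CPM in control and 32.6 CPM in squashed cells, a ratio of -1.13 (-1.25 to -1.01). Its histone-fold partner POLE3 was at 0.32 (0.24 to 0.39). DUT, which removes dUTP, was at -0.46 (-0.65 to -0.28), the cyclin gene CCNA2 at -0.41 (-0.60 to -0.23), the origin recognition subunit ORC4 at -0.28 (-0.43 to -0.13) and RFC1 at 0.28. H4C3 itself had 281 CPM in control and 505 CPM in squashed cells, a log2 ratio of 0.85 (0.80 to 0.89), while the 54 G2/M genes summed to 6622 and 6165 CPM (-0.10). Transcripts of the 28 genes ran from 1263 to 8512 nucleotides, so none was among those up to 800 nucleotides, as 295 of all measured genes were. The median ratio of these short transcripts was 0.02, against -0.15 for longer ones. The part of transcript length in the ratios was not tested.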

How the data were processed

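The values are counts of UMIs per gene and barcode, which the authors deposited as unscaled whole numbers. The libraries were made with the 10x Chromium 3.1 kit and sequenced on a NovaSeq 6000, per the labels' design text. The design text names Cell Ranger 5.0.1 and the file header 4.0.0, with the GRCh38 build. R 4.3.2 is named in the submitters' processing notes.

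UMIs were summed over kept cells and divided by the library total (CPM). Log2 ratios used a prior of 0.5 counts, with exact Clopper-Pearson intervals for ratios and exact Poisson intervals for CPM. A gene was measured at 20 CPM in either library and called at 1.5-fold, by size. Groups came from the treatment label. Each group is 1 library, so treatment and library cannot be told apart. Doublets marked by Scrublet (scanpy 1.11.5; 16 control and 15 squashed cells) were kept. TMM factors came from edgeR 4.0.16. The ratio script was tested on simulated data. Python 3.11.15, numpy 2.4.6 and scipy 1.17.1 were used. Gene positions and overlaps are from GENCODE 44, whose IDs matched 36366 of 36601 genes.

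The members and lists were chosen with earlier results of these data known. All members could be named, with full values for measured ones. Of the other replication genes the 6 measured with the largest ratio in size were named, and of all other genes the 8 most like the list at 50 CPM or more in the upper cells. The promoters shown were those of the members with the extreme ratios, leaving out 1 chromosome and members without a window.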

Additional observations from a re-analysis of the deposited data

How the results depend on the processing

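Leaving out doublets, dropping the cell filter or leaving mitochondrial genes out of the total kept the summed level, the median and both counts of called genes near their values. The summed log2 ratio of squashed over control (-0.011) was 0.14 with TMM scaling, -0.15 with the stricter cell filter, -0.15 with cells thinned to 2000 UMIs, 0.090 in cells with at least 10000 UMIs and -0.12 with cells weighted equally. The median ratio (0.033) was 0.18, -0.18, -0.05, 0.12 and -0.14 under the same settings. The sum and the median thus had no stable sign. The count of genes at least 1.5-fold higher (1, against 3.48% of all measured genes) was 3 with TMM scaling (5.83% of all). It was 0 with equal weights (3.55%) and 0 among the 9 genes measured at 50 CPM (4.63%). The count lower (1) was 0 with TMM scaling, 4 with thinning, 0 in cells with at least 10000 UMIs, 0 at 50 CPM and 3 with no minimum. The log2 ratio of mean UMIs per cell (-0.15) was -0.051 at a depth of 1000 UMIs, 0.015 in cells with at least 10000 UMIs thinned to 10000 and -0.25 with the stricter filter. The summed ratio of G2/M-high over rest cells was 1.05 in the control and 1.22 in the squashed library. It was 0.88 and 1.07 in cells with at least 10000 UMIs, and 0.75 and 1.10 with the upper 20% as G2/M-high. That of H4C3-high over rest cells was 0.44 and 0.64. It was 0.32 and 0.52 in cells with at least 10000 UMIs, 0.25 and 0.49 with the upper 20%, and 0.56 in control cells with the bounds drawn at 10000 UMIs. The cause of these shifts was not tested. No paired analysis was possible because each group is 1 library and the labels give no replicate numbers. Depth limits the 13 genes under 20 CPM most, whose intervals are wide.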
